A study of Saccharomyces cerevisiae with 6 samples.

Results

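The hypoxic response of wild-type budding yeast (Saccharomyces cerevisiae) was measured on 3 of the 6 arrays of a study of oxygen regulation. Membership was set by the sample titles, which name wild type and replicates 1 to 3. The other 3 arrays carried the same comparison in a strain with a deletion of HAP1, which encodes a transcription activator that binds heme. On each array, messenger RNA of a hypoxic culture competed with messenger RNA of an aerobic culture of the same strain, so every value is a ratio within 1 strain. The hypoxic RNA was labelled with Cy5 on replicates 1 and 3 and with Cy3 on replicate 2, and the aerobic RNA with the other dye. Replicates were separate cultures grown on separate days. The sources used here do not state the strain background, the growth medium, the oxygen level or the duration of hypoxia. Values are log2 ratios of hypoxic over aerobic RNA and are positive where a transcript was more abundant in hypoxia.

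Yeast reads oxygen largely through heme and sterols, whose synthesis needs it. Heme-bound Hap1 activates respiratory and oxidative genes and also the repressor gene ROX1, whose product keeps hypoxic genes off in air, while Upc2 turns on sterol and cell wall genes when sterols run short. Mga2 and Spt23 control the fatty acid desaturase gene. When oxygen is scarce, respiration gives way to fermentation, sterols and unsaturated fatty acids are imported, and the cell wall exchanges one set of mannoproteins for another.

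The table gave 6282 genes, of which 6208 had at least 2 values in each strain and were tested. The medians of the wild-type arrays lay between -0.06 and -0.02 on the log2 scale, and 15, 349 and 31 values were missing on replicates 1, 2 and 3. Between wild-type arrays the ratios correlated across genes at r from 0.412 to 0.539, where genes are not independent replicates. Replicate 1 lay closest to hap1 deletion replicate 3 (r = 0.538) and not to another wild-type array.

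In wild-type cells 119 genes rose in hypoxia (1.92% of those tested) and 144 fell (2.32%), or 4.24% in all, at a limma adjusted p under 0.05. RNA came from whole cultures, so fewer cells expressing a gene and less RNA per cell cannot be told apart. The genes that rose had a median ratio of 1.59, with a span from 0.79 for GPM1 to 4.67 for TIR2. The genes that fell had a median of -1.28 and reached -5.06 for YHB1. All 3 arrays gave a ratio past 2-fold for 71 of the genes that rose and 79 of those that fell. Over the 5902 genes with 3 wild-type values, whatever their test, 108 were at least 2-fold higher on every array (1.83%) and 107 at least 2-fold lower (1.81%).

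The calls rested on a spread shared between the strains, and their number varied with the arrays in the fit. With the wild-type arrays alone, YHB1 and CYC1 passed and no other gene did, although 1526 genes had an unadjusted p under 0.05. The same pair passed in all 6 fits that each left out an array. A further 4 genes, PAU2, PAU5, TIR2 and ERG13, were called in 5 of those fits. Without wild-type replicate 1, 10 genes were called higher and 17 lower. The counts were 0 and 2 without wild-type replicate 2, and 21 and 3 without wild-type replicate 3. Without hap1 deletion replicate 2 they were 27 and 12, without hap1 deletion replicate 1 they were 144 and 199, and without hap1 deletion replicate 3 they were 110 and 123. Of the called genes 19 were called in none of these 6 fits, among them CYC7, COX5A, ANB1, DLD2, DIC1, HSP60 and SAM2.

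**Figure D1:**
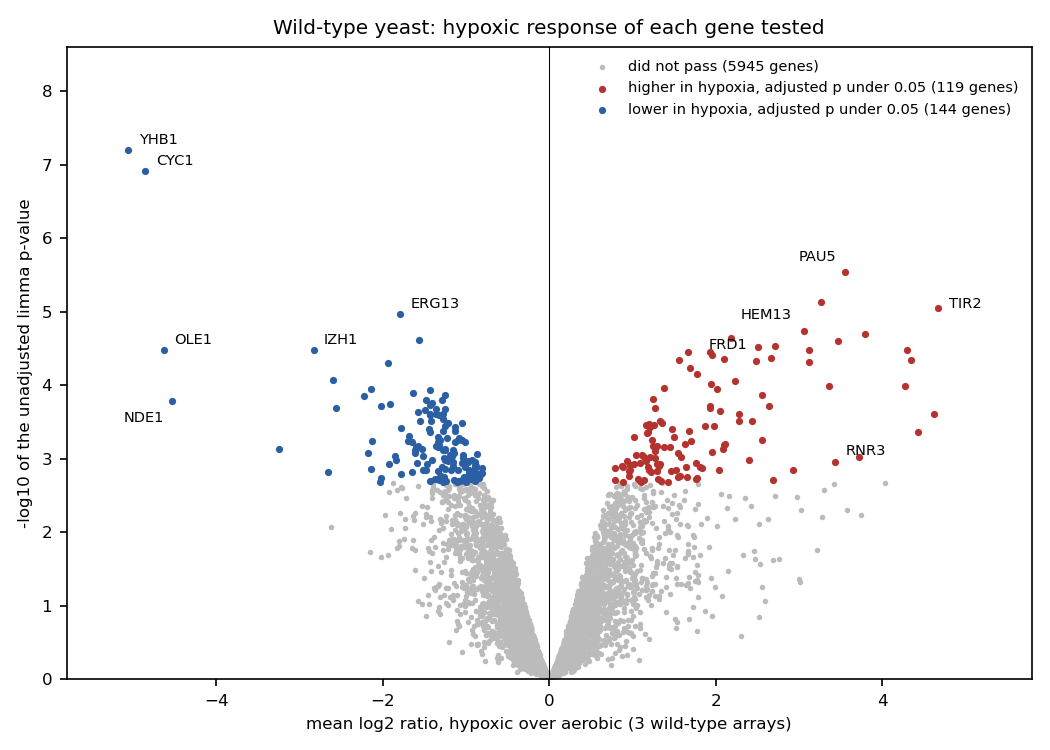
Mean log2 ratio of hypoxic over aerobic RNA on the 3 wild-type arrays (horizontal axis) against the -log10 of the unadjusted limma p (vertical axis), with 1 point for each of the 6208 genes tested. The 119 genes called higher are red, the 144 called lower are blue, and YHB1 and CYC1 lie apart from the others at the upper left.

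Of 18 genes of heme proteins tested, 7 fell and 0 rose, against 2.32% and 1.92% of all genes, and their median ratio was -0.98 against -0.04 over all genes tested. YHB1, the flavohemoglobin that consumes nitric oxide, read -4.64, -5.02 and -5.52 on replicates 1, 2 and 3. Its RNA was thus 33.4-fold lower in hypoxia than in air (mean -5.06 ± 0.44 SD, n = 3, limma adjusted p = 0.000386), and all arrays lay within 1 log2 unit. CYC1, the main cytochrome c, read -4.93, -4.81 and -4.81 (28.9-fold lower, limma adjusted p = 0.000386). It was one of the 8 called genes with the lowest SD over the wild-type arrays (0.07). OLE1, the only fatty acid desaturase of this yeast, read -3.06, -6.01 and -4.83 (mean -4.63 ± 1.49 SD, n = 3, limma adjusted p = 0.0116). Every array showed a large fall, but its size varied with the array. The remaining 4 were FRE1 (mean -2.66), CYC7 (-2.15), CYB5 (-1.91), the electron donor of sterol and lipid enzymes, and CTA1 (-0.97), the peroxisomal catalase. The list had 6, 2 and 2 lower calls without wild-type replicates 1, 2 and 3, and 3 without hap1 deletion replicate 2.

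HEM13, which performs an oxygen-dependent step of heme synthesis, moved the other way and was the only one of 8 heme synthesis genes to pass. It read 2.13, 3.67 and 3.38, or 8.36-fold higher in hypoxia (mean 3.06 ± 0.82 SD, n = 3, limma adjusted p = 0.0116). HEM1, the first enzyme of the pathway, read 0.56, 0.07 and 0.59 and did not pass. Nor did HEM14, of another oxygen-dependent step, at -0.33, 0.09 and 0.47. The heme oxygenase gene HMX1, whose product breaks heme down, fell and read -1.58, -1.39 and -1.27 (limma adjusted p = 0.023).

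Among 27 genes of enzymes that consume oxygen, 2 rose and 4 fell (22.2%, against 4.24% of all genes tested). COQ6, a monooxygenase of ubiquinone synthesis, was the other riser beside HEM13 and read 1.07, 1.87 and 0.87 (limma adjusted p = 0.0397). FET3, the multicopper ferroxidase, completed the fallers with YHB1, OLE1 and HMX1. The sterol demethylase ERG11 and the sterol desaturase ERG3 read 0.64, -1.70 and -1.93 and 0.73, -2.61 and -2.13, and neither passed. Both were above 0 on replicate 1 and well below it on the other arrays. Without wild-type replicate 1 the list had 1 riser and 6 fallers. It had 0 and 1 without replicate 2, again 0 and 1 without replicate 3, and 1 and 3 without hap1 deletion replicate 2.

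None of the 15 regulators of oxygen, heme and sterol responses passed the test in either direction, and their mean ratios lay between -0.92 and 0.82. ROX1 read -0.36, -1.66 and -0.75 (limma adjusted p = 0.0931), below 0 on all arrays. UPC2 gave no common direction, at -2.09, 0.62 and 0.42. MGA2 was the most even, at 0.09, 0.15 and 0.11. The HAP1 spot read 0.84, 0.50 and 1.10 (limma adjusted p = 0.0559), or 1.76-fold higher in hypoxia, and missed the threshold. It also read 0.47, 0.56 and 0.72 on the arrays of the HAP1 deletion. Whether the spot reports HAP1 RNA is therefore uncertain and was not tested.

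The respiratory chain genes that passed all fell. NDE1, the mitochondrial dehydrogenase that oxidises cytosolic NADH, fell 23.1-fold and read -2.50, -4.74 and -6.35 (limma adjusted p = 0.0225). DLD2, a mitochondrial D-lactate dehydrogenase family member, read -0.66, -1.20 and -0.78 (limma adjusted p = 0.0462) but was called in none of the fits that left out an array. These were 2 of 11 mitochondrial dehydrogenase genes (18.2%, against 4.24% of all genes tested). In the cytochrome c oxidase list 2 of 9 genes fell, COX5A and COX8, and 0 rose. COX5A read -1.12, -1.25 and -2.98 (limma adjusted p = 0.0453) and COX8 read -0.91, -2.33 and -1.58 (limma adjusted p = 0.0349). The cytochrome bc1 complex had a negative mean for all 9 genes, but only QCR6 passed, at -0.78, -0.84 and -1.06 (limma adjusted p = 0.0453). Its group median was -0.04 on replicate 1, against -1.23 and -2.12 on replicates 2 and 3. The cytochrome c oxidase median was likewise -0.45, -1.45 and -1.58. Among 18 mitochondrial carrier and porin genes 1 fell and 1 rose (11.1%). MIR1, the phosphate carrier, fell at -1.10, -1.20 and -1.46 (limma adjusted p = 0.023). DIC1, the dicarboxylate carrier, rose at 0.78, 1.12 and 1.69 (limma adjusted p = 0.0437). None of the 13 ATP synthase genes and none of the 69 mitochondrial ribosomal protein genes passed. The dehydrogenase, bc1 and oxidase lists had 1 lower call each without wild-type replicate 1, and 0 each without replicate 2 or 3. Omitting hap1 deletion replicate 2 also left 0 in each. MIR1 was called only without hap1 deletion replicate 1 or 3, and DIC1 in none of these fits.

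Carbon metabolism showed rises at the entry to the citrate cycle and at its reductive end. From citrate to alpha-ketoglutarate, 5 of 14 genes rose (35.7%, against 4.24% of all genes tested) and 0 fell. ACO1, the aconitase, read 1.98, 2.12 and 1.75 (mean 1.95 ± 0.19 SD, n = 3, limma adjusted p = 0.0117). IDH1 and IDH2, the subunits of NAD-dependent isocitrate dehydrogenase, averaged 1.68 ± 0.33 and 1.67 ± 0.21 (SD, n = 3). CIT2, the peroxisomal citrate synthase, averaged 2.09, and PYC1, which makes oxaloacetate from pyruvate, averaged 1.32. The mitochondrial citrate synthase gene CIT1 read 2.35, 0.96 and 1.10 and did not pass (limma adjusted p = 0.0626). Leaving out any 1 of the 3 wild-type arrays left no call in the list, and leaving out hap1 deletion replicate 2 left 3.

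FRD1, the soluble fumarate reductase, read 2.18, 2.61 and 2.73, 5.69-fold higher in hypoxia (mean 2.51 ± 0.29 SD, n = 3, limma adjusted p = 0.0116). Its mitochondrial counterpart OSM1 read 1.09, 0.73 and 0.98 (limma adjusted p = 0.0413). Both enzymes reduce fumarate to succinate, the reverse of the succinate dehydrogenase step. They were the only 2 of 13 genes between alpha-ketoglutarate and oxaloacetate that passed (15.4%, against 4.24% of all genes tested). FRD1 was the only call without wild-type replicate 1, and without replicate 2 or 3 the list had none. Without hap1 deletion replicate 2 it had 1. The succinate dehydrogenase genes SDH1 and SDH2 averaged 0.72 and 0.66 and did not pass.

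In upper glycolysis 2 of 9 genes rose (22.2%, against 4.24% of all genes tested), both glucose kinases, and 0 fell. GLK1, the glucokinase, read 3.18, 2.87 and 2.72 (limma adjusted p = 0.0437), and HXK1 read 1.15, 2.43 and 1.75 (limma adjusted p = 0.0487). HXK2, the main hexokinase of fermenting cells, read -0.01, 0.35 and -0.37. EMI2, a relative of GLK1, reached 1.45, 2.96 and 2.87 without passing (limma adjusted p = 0.0661). In lower glycolysis GPM1, the phosphoglycerate mutase, rose by a small but very even amount, at 0.81, 0.78 and 0.78, and its paralog GPM2 rose more, to a mean of 2.04. None of the 19 hexose transporter genes passed. In fermentation and acetate metabolism ALD4 (1.68, 2.47 and 2.13), a mitochondrial aldehyde dehydrogenase, and ADH5 (0.83, 1.0 and 0.82), an alcohol dehydrogenase, rose. ACS2, the acetyl-CoA synthetase of the nucleus and cytosol, fell, at -1.0, -1.81 and -1.49 (limma adjusted p = 0.024). The main ethanol genes ADH1 and PDC1 averaged 0.55 and 0.31 and did not pass. Leaving out any 1 of the 3 wild-type arrays left none of these calls, and leaving out hap1 deletion replicate 2 left 0 in either part of glycolysis and 1 in fermentation and acetate metabolism.

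**Figure D2:**
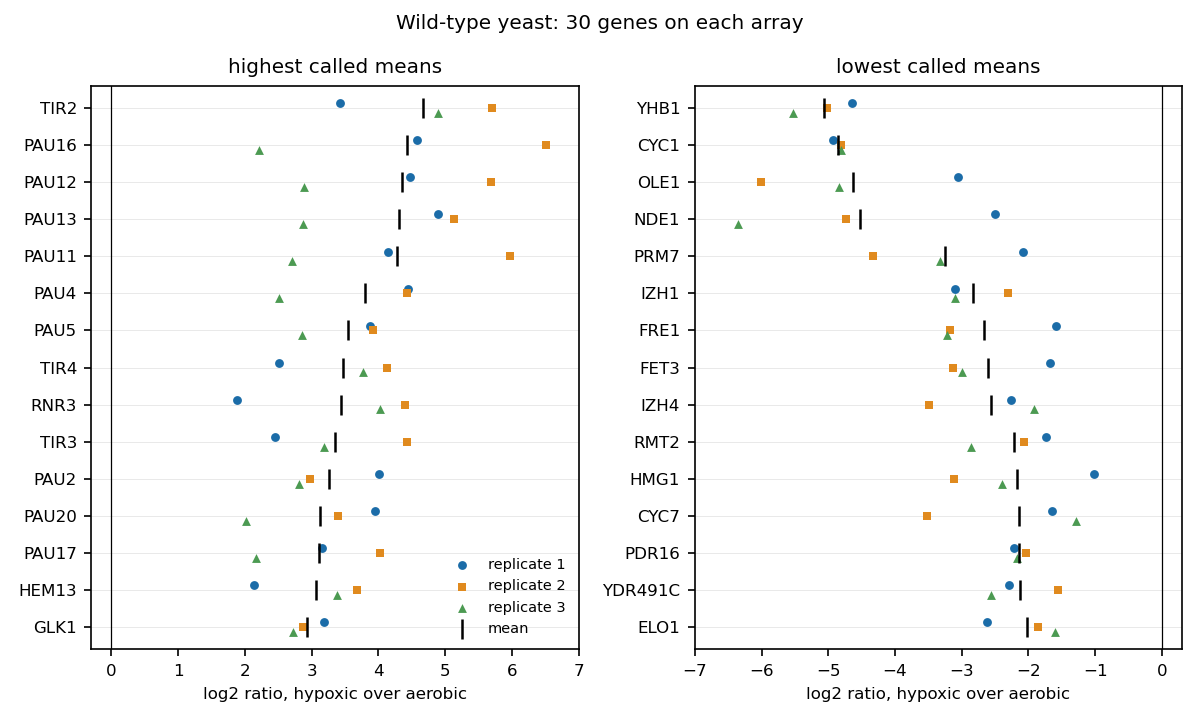
Log2 ratio of hypoxic over aerobic RNA on each wild-type array (points, 1 per array) with the mean (black bar), for the 15 called genes with the highest mean (left) and the 15 with the lowest (right). TIR2 lies highest at a mean of 4.67 and YHB1 lowest at -5.06, and the arrays of CYC1 nearly coincide.

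Of 21 glycogen and trehalose genes 3 rose (14.3%, against 4.24% of all genes tested) and 0 fell. In that list 19 genes had a mean above 0, and the median was 0.94. GSY2, a glycogen synthase, read 2.08, 1.83 and 1.54 (limma adjusted p = 0.043), and UGP1, which supplies UDP-glucose, read 2.16, 1.5 and 1.25 (limma adjusted p = 0.043). GPH1, the glycogen phosphorylase, read 5.47 and 3.78 on replicates 1 and 2 and had no value on replicate 3, so its fitted value (limma adjusted p = 0.0239) rests on a pair of wild-type arrays. PGM2 and TSL1, of glucose 1-phosphate and trehalose synthesis, averaged 2.36 (limma adjusted p = 0.0586) and 3.22 (limma adjusted p = 0.125), neither passing. On the hap1 deletion arrays TSL1 read -1.96, 0.85 and 4.44, and that spread entered the shared error. Without any 1 wild-type array the list had 0 calls, while leaving out hap1 deletion replicate 2 gave 0 and replicate 3 gave 6.

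In the vacuole APE1, an aminopeptidase that travels there by a selective form of autophagy, read 2.10, 2.49 and 1.94 (4.53-fold higher in hypoxia, limma adjusted p = 0.0116). It and APE3 (1.31) were the called members of 17 vacuolar protease and autophagy genes (11.8%, against 4.24% of all genes tested). In that list 16 genes had a mean above 0. ATG19, the receptor that carries Ape1 and the mannosidase Ams1 to the vacuole, read 1.90, 3.06 and 1.87 (limma adjusted p = 0.0239), and AMS1 itself read 2.74, 1.36 and 1.41 (limma adjusted p = 0.0435). ATG19 and AMS1 were picked out after their values had been seen. Receptor and both cargoes were more than 2-fold higher in hypoxia on each of the 3 arrays. APE1 was called in 4 of the 6 fits that left out an array (not without wild-type replicate 1 or 2), and ATG19 and AMS1 in 2 each (not without any wild-type array or hap1 deletion replicate 2).

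Sterol synthesis genes fell at the start of the pathway. Of 9 mevalonate pathway genes 4 fell (44.4%, against 4.24% of all genes tested) and 0 rose. ERG13, which makes HMG-CoA, read -1.91, -1.73 and -1.75 (mean -1.80 ± 0.10 SD, n = 3, limma adjusted p = 0.0112), with little spread. ERG8, the phosphomevalonate kinase, read -1.16, -1.93 and -1.80 (limma adjusted p = 0.0206), and MVD1, the decarboxylase that follows, read -1.18, -1.63 and -1.67 (limma adjusted p = 0.023). HMG1, the main HMG-CoA reductase, read -1.01, -3.12 and -2.39 (limma adjusted p = 0.038), least on replicate 1. The mevalonate list had 3, 0 and 1 lower calls without wild-type replicates 1, 2 and 3, and 1 without hap1 deletion replicate 2. From squalene to ergosterol, CYB5 alone of 15 genes passed (6.67%, against 4.24% of all genes tested). The median of that list was 0.16 on replicate 1, against -0.80 and -0.94 on replicates 2 and 3, and without replicate 1 it had 4 lower calls.

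Genes of sterol import and esterification moved up where they passed. HES1, an oxysterol-binding protein homolog, read 2.34, 1.28 and 3.21 (limma adjusted p = 0.0264), and ARE1, a sterol acyltransferase, read 0.97, 1.15 and 1.55 (limma adjusted p = 0.0448). These were 2 of 17 genes (11.8%, against 4.24% of all genes tested), and 0 fell. The sterol importer genes gave no call. PDR11 read 4.67, 1.90 and 1.58 (limma adjusted p = 0.057), above 2-fold on every array, whereas AUS1 read -2.01, 2.21 and 3.38, below 0 on replicate 1 and above it on the others. Without any 1 wild-type array, or without hap1 deletion replicate 2, the list had 0 calls. Of 13 fatty acid synthesis genes 2 fell (15.4%) and 0 rose. ELO1, an elongase, joined OLE1 at -2.63, -1.86 and -1.61 (limma adjusted p = 0.0497). The list had 1 lower call without wild-type replicate 1, 0 without replicate 2 or 3, and 1 without hap1 deletion replicate 1 or 2. PDR16, a phosphatidylinositol transfer protein that affects sterol and lipid make-up, fell evenly at -2.21, -2.04 and -2.17 (limma adjusted p = 0.0191).

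Called means were ranked over genes with a value on all 3 wild-type arrays, which left out GPH1. Of the 15 highest, 12 belonged to TIR or seripauperin genes of the cell wall. All 4 TIR genes rose, as did DAN4 and PAU24, which made 6 of 8 DAN and TIR mannoprotein genes, with 0 falling. TIR2 read 3.42, 5.71 and 4.90 (25.5-fold higher in hypoxia, limma adjusted p = 0.011), TIR4 2.51, 4.12 and 3.76, TIR3 2.45, 4.43 and 3.18 and TIR1 1.68, 2.09 and 3.56. DAN1 had values of 0.27 and 1.15 on replicates 1 and 3 only and did not pass. Of 23 seripauperin (PAU) genes 19 rose and 0 fell, and their group medians were 2.92, 3.05 and 2.10. PAU24 and PAU23, which did not pass, stand in both lists. The PAU genes are near-identical in sequence, so their spots may share signal and are not separate measurements. Leaving out wild-type replicates 1, 2 and 3 left 2, 0 and 14 PAU calls and 2, 0 and 1 DAN and TIR calls, and leaving out hap1 deletion replicate 2 left 11 and 4. Of 26 wall protein genes known from aerobic cells 1 rose (3.85%, near the 4.24% of all genes tested) and 0 fell. TIP1 was that gene, at 1.52, 1.14 and 1.48 (limma adjusted p = 0.0191). That call was lost without any 1 wild-type array and held without any 1 hap1 deletion array. CWP1 read 0.20, 2.07 and 1.59 and did not pass.

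**Figure D3:**
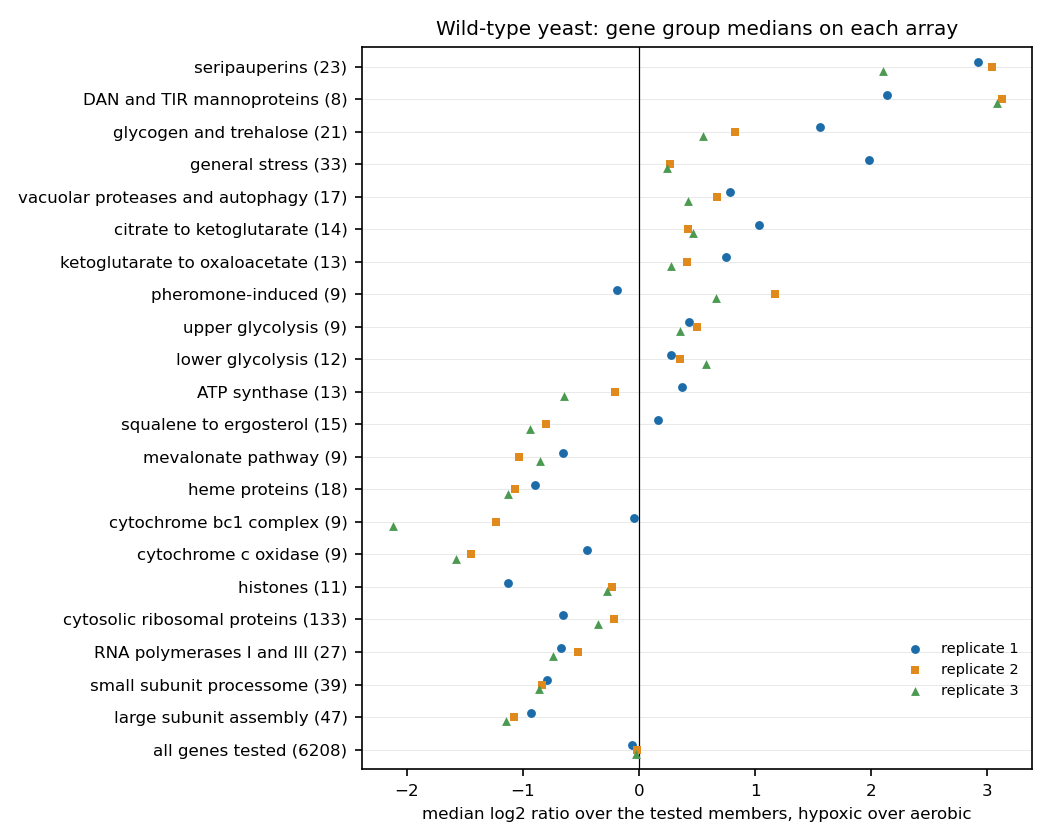
Median log2 ratio of hypoxic over aerobic RNA (horizontal axis) over the tested members of 21 gene groups and of all genes, with 1 point per wild-type array and the number of genes in brackets. Seripauperin and DAN and TIR medians lie above 2 on every array, while replicate 1 stands apart for the general stress, histone, cytochrome bc1 and squalene to ergosterol groups.

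Of the 14 genes in 7 isoform pairs that yeast is known to switch with oxygen, 1 rose and 6 fell. In all 50.0% were called, against 4.24% of all genes tested. For cytochrome c both genes fell, CYC1 as above and CYC7, the hypoxic isoform, at -1.64, -3.52 and -1.28 (limma adjusted p = 0.0437). COX5A fell, while its hypoxic counterpart COX5B read 2.23, 3.55 and 0.68 (limma adjusted p = 0.0574), above 0 on all arrays with wide spread. Of the ADP/ATP carriers PET9 read -0.34, -1.29 and -1.63 and AAC3 -0.32, 2.55 and 1.26, and neither passed. HMG1 fell, and HMG2 read -0.08, 0.30 and 0.30. ARE1 rose, and ARE2 read -0.45, -1.58 and -1.37 (limma adjusted p = 0.08), with no overlap between the arrays of the pair. For translation factor eIF5A both HYP2, the aerobic form, and ANB1, the hypoxic form, fell, at -1.61, -1.80 and -2.38 (limma adjusted p = 0.0416) and -1.43, -0.52 and -1.16 (limma adjusted p = 0.049). HYP2 and ANB1 are near-identical, so the reading of each is uncertain. The glycerol phosphate dehydrogenase genes GPD1 and GPD2 averaged 2.24 and 0.59 and did not pass. CYC7, COX5A and ANB1 were called in none of the 6 fits that left out an array. Without wild-type replicates 1, 2 and 3 the list had 2, 1 and 1 lower calls and 0 higher. Without hap1 deletion replicates 1, 2 and 3 it had 3, 1 and 2 lower and 2, 0 and 1 higher.

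**Figure D4:**
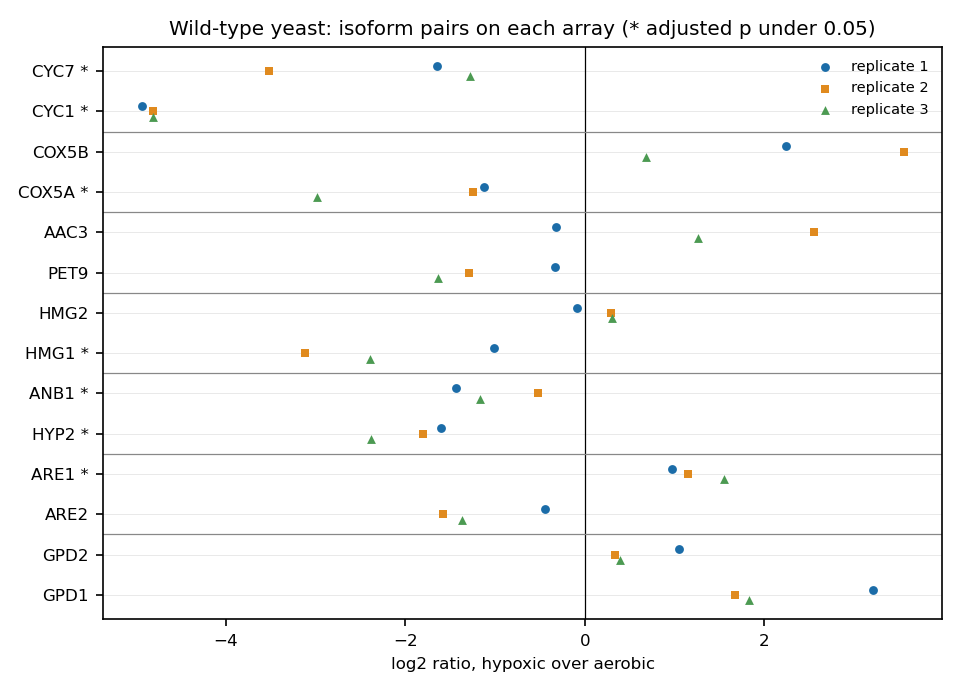
Log2 ratio of hypoxic over aerobic RNA on each wild-type array for 7 isoform pairs, the form known from hypoxic cells above its partner. Asterisks mark an adjusted p under 0.05. CYC1 sits near -4.85 on all arrays, and ANB1 lies below 0 with HYP2.

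Metal uptake genes fell where they passed. In reductive iron and copper uptake 4 of 21 genes fell (19.0%, against 4.24% of all genes tested) and 0 rose. The means of 7 genes in that list lay above 0. FET3 read -1.68, -3.14 and -2.99 (6.07-fold lower in hypoxia, limma adjusted p = 0.0175), and FTR1, its iron permease partner, read -0.96, -1.84 and -2.16 (limma adjusted p = 0.033). FRE1, the cell surface metalloreductase, read -1.59, -3.18 and -3.22 (limma adjusted p = 0.0444), and CTR1, the copper transporter, read -2.36, -1.65 and -2.06 (limma adjusted p = 0.0481). The first 3 of these were smallest on replicate 1, and CTR1 was largest there. Iron genes did not fall as a whole. HMX1 alone of 16 siderophore and iron regulator genes passed, and 8 means lay above 0 and 8 below. FIT2 read 3.20, 0.59 and 0.73 without passing (limma adjusted p = 0.125). FIT1 and FIT3 were likewise above 0 on every wild-type array and did not pass. Of 10 zinc and IZH family genes the receptor-like membrane proteins IZH1 and IZH4 fell, at -3.10, -2.31 and -3.10 (limma adjusted p = 0.0116) and -2.27, -3.49 and -1.91 (limma adjusted p = 0.023). IZH2 read -1.32, -0.87 and -0.61 and did not pass. In the phosphate regulon PHO5, the secreted acid phosphatase, fell at -1.62, -1.27 and -0.96 (limma adjusted p = 0.0264) and PHM6 at -0.94, -1.44 and -1.20 (limma adjusted p = 0.0395), 2 of 18 genes. The iron and copper list had 1, 0 and 0 calls without wild-type replicates 1, 2 and 3, and 1 without hap1 deletion replicate 2. The zinc and IZH list and the phosphate list had 0 without any 1 wild-type array, and 1 and 0 without hap1 deletion replicate 2.

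Of 24 pyrimidine and purine synthesis genes 5 fell (20.8%, against 4.24% of all genes tested) and 0 rose. URA1, the dihydroorotate dehydrogenase, which in this yeast hands electrons to fumarate, read -1.5, -2.31 and -2.00 (mean -1.94 ± 0.41 SD, n = 3, limma adjusted p = 0.0117). IMD2 and IMD3, IMP dehydrogenases of guanine nucleotide synthesis, averaged -1.43 and -1.25, and the CTP synthase gene URA7 averaged -1.36. URA4, of the step before URA1, read -0.87, -1.38 and -1.06 (limma adjusted p = 0.0437). The IMD genes are close paralogs, so their spots may share signal. Without wild-type replicates 1, 2 and 3 the list had 1, 0 and 0 calls, and without hap1 deletion replicate 2 it had 1.

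Ribonucleotide reductase, which makes deoxynucleotides with an oxygen-dependent radical, rose in 3 of its 4 genes. RNR3, the DNA damage-inducible large subunit, read 1.89, 4.39 and 4.02 (10.8-fold higher in hypoxia, limma adjusted p = 0.0413). RNR2 and RNR4, the small subunits, read 1.84, 2.60 and 2.77 (limma adjusted p = 0.0411) and 1.34, 2.26 and 2.74 (limma adjusted p = 0.0341). RNR1, the usual large subunit, read -0.66, 0.27 and 0.33. All 3 risers were smallest on replicate 1 and at least 1.34 on every array. WTM1, whose product holds Rnr2 and Rnr4 in the nucleus, read 3.16, 2.26 and 2.26 (limma adjusted p = 0.033), a gene picked out after its value had been seen. In the same list of 23 genes MCM3, of the replicative helicase, fell at -1.21, -0.92 and -1.30 (limma adjusted p = 0.0492). Of that list 17.4% passed, against 4.24% of all genes tested. Leaving out any 1 of the wild-type arrays, or hap1 deletion replicate 2, left 0 calls in the list.

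Ribosome synthesis genes fell where they passed, apart from 1 ribosomal protein gene. Of 47 large subunit assembly genes 13 fell and 0 rose, with a median of -1.06 and array medians of -0.93, -1.08 and -1.15. ARX1, an export factor of the large subunit, read -1.28, -1.49 and -1.63 (limma adjusted p = 0.0416), NUG1, a nuclear GTPase, -1.16, -1.62 and -1.44, RSA4 -1.55, -1.14 and -1.43 and NMD3, the export adaptor, -1.15, -1.35 and -1.43. Of 39 small subunit processome genes 8 fell and 0 rose, with a median of -0.76, led by NSR1 at -1.09, -1.78 and -1.81 (limma adjusted p = 0.0264). The RNA polymerase I and III genes RPA43 and RPC53 fell, 2 of 27 (7.41%, against 4.24% of all genes tested). The cytosolic ribosomal protein list had 133 genes, among them RPP1, which belongs to RNase P and did not pass. Of that list 2.26% passed, a smaller share than of all genes. RPL34A and RPS1B fell and RPL43B rose, and the group median was -0.38. Ribosomal protein paralogs are near-identical, so these 3 calls are uncertain. PWP1 (-1.29, -1.25 and -1.27) and MRT4 (-1.31, -1.33 and -1.38), both of ribosome assembly, had among the lowest SDs of the called genes, at 0.02 and 0.04. The assembly, processome, polymerase and ribosomal protein lists had 0 calls without any 1 wild-type array. Without hap1 deletion replicate 1 they had 24, 8, 6 and 5, without hap1 deletion replicate 2 they had 1, 0, 0 and 0, and without hap1 deletion replicate 3 they had 14, 7, 2 and 1.

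Stress, folding and antioxidant genes were counted separately. UGA1, of gamma-aminobutyrate breakdown, was the only one of 33 general stress genes to pass (3.03%, against 4.24% of all genes tested), at 2.05, 1.68 and 1.59 (limma adjusted p = 0.0153). The median of that list was 1.98 on replicate 1, against 0.27 and 0.24 on replicates 2 and 3. HSP12, for example, read 5.79, 2.07 and 0.19 and did not pass. Of 23 cytosolic chaperone genes 3 rose (13.0%). The co-chaperones SIS1 (1.59, 1.51 and 1.59) and CPR6 (1.15, 1.16 and 1.42) and the Hsp70 gene SSA2 (1.06, 0.89 and 1.09) were these, and all were evenly higher over the arrays. HSP60, the mitochondrial chaperonin, rose at 0.67, 1.55 and 2.41 (limma adjusted p = 0.0477), and so did EUG1, an endoplasmic reticulum disulfide isomerase homolog, at 1.22, 2.61 and 1.98 (limma adjusted p = 0.023). Of 27 antioxidant genes 2 fell (7.41%), TSA1, the main cytosolic peroxiredoxin, at -1.39, -2.32 and -2.37 (limma adjusted p = 0.023) and CTA1. Of these genes EUG1 was called without wild-type replicate 1, and none was called without replicate 2 or 3. Without hap1 deletion replicate 3 the stress list had 5 calls and the cytosolic chaperone list 6, and without hap1 deletion replicate 2 they had 1 and 0.

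Amino acid synthesis and permease genes were called at about the share of all genes (4.24%). BAT2, the cytosolic branched-chain aminotransferase, read 1.59, 1.52 and 1.55 (limma adjusted p = 0.0117) and LYS1, of lysine synthesis, 1.58, 0.96 and 0.80 (limma adjusted p = 0.0384), 2 of 54 synthesis genes (3.70%). PTR2, the peptide transporter, rose at 1.45, 2.27 and 2.08 (limma adjusted p = 0.0116), 1 of 21 permease genes (4.76%). Of 25 sulfur and methionine genes 2 fell (8.0%) and 0 rose, both of the methyl cycle. SAM2, which makes S-adenosylmethionine, and SAH1, which clears its product, fell at -2.14, -1.05 and -0.78 (limma adjusted p = 0.0481) and -0.77, -1.19 and -1.18 (limma adjusted p = 0.033). PNC1, a nicotinamidase of NAD salvage, was high on every wild-type array, at 3.29, 2.61 and 3.04, but did not pass (limma adjusted p = 0.0578), with -0.48, 1.01 and 3.71 on the hap1 deletion arrays. Without wild-type replicate 1 PTR2 was the only one of these called, and without replicate 2 or 3 none was. Without hap1 deletion replicates 1, 2 and 3 the synthesis list had 3, 1 and 1 calls and the permease list 2, 1 and 1.

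Groups without a call also varied between the wild-type arrays. Replicate 1 was the lowest for the histone, pheromone-induced, a-specific and meiosis genes. The 11 histone genes had medians of -1.13, -0.23 and -0.27, and the 9 pheromone-induced genes medians of -0.19, 1.17 and 0.67. The 6 a-specific genes had medians of -0.30, 1.04 and 0.47. The 4 alpha-specific genes had 0.10, 0.74 and 0.00, highest on replicate 2, and the 7 meiosis genes -0.51, -0.28 and 0.09, highest on replicate 3. None of these mating and meiosis genes passed. The ratio compares cultures of 1 strain, so it cannot show a cell type that both cultures held. Replicate 1 also had the highest general stress median and, for cytochrome bc1, cytochrome c oxidase and squalene to ergosterol, the highest medians of the 3 arrays, and its part in the counts was measured by leaving it out.

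Position along the chromosome was also counted. Among the 10 outermost genes at each end, 28 of 292 tested rose (9.59%), against 85 of 5355 elsewhere (1.59%). Without the PAU, DAN and TIR genes 12 of 274 rose (4.38%). Of 5261 neighbouring gene pairs, 8 held 2 risers and 4 held 2 fallers, among them the risers TIR4 and TIR2 and the fallers ANB1 and CYC1. Gene order came from the RefSeq annotation of assembly R64, and no test was made of these counts.

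The response of the wild-type strain was set beside that of the hap1 deletion, with the difference (wild type minus hap1 deletion) tested in the same fit. The ratios do not check the deletion, since both cultures of an array shared it. The HAP1 spot read 0.47, 0.56 and 0.72 on the deletion arrays. In the hap1 deletion 155 genes rose (2.5%) and 113 fell (1.82%), or 4.32% in all. Of the wild-type risers 53 also rose there, 44.5% of the wild-type and 34.2% of the hap1 deletion calls. Of the wild-type fallers 47 also fell there, 32.6% and 41.6%, and 5 were called higher. The 2 strains shared no culture or array.

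The difference passed for 22 genes, 3 more positive in wild type (0.0483% of those tested) and 19 more negative (0.306%), or 0.354% in all. YHB1 read 0.27, -0.10 and -0.03 and CYC1 0.64, -0.13 and -0.38 on the deletion arrays, near 0 throughout, against the large falls in wild type. OLE1 read 1.12, 1.71 and 1.28 there, above 0 on every array without passing (limma adjusted p = 0.149), against its fall in wild type (difference -6.01 ± 0.70 SE, limma adjusted p = 0.0345). CYB5, ERG13, ERG8, MVD1 and PRM10 fell in wild type and rose in the hap1 deletion, where MVD1 and PRM10 had 2 values each. ERG13, for instance, read -1.91, -1.73 and -1.75 in wild type and 1.14, 1.37 and 1.11 in the hap1 deletion (limma adjusted p = 0.00733). ERG28, ERG26, ERG2, ERG27, ERG10, SCM4 and MSC7 did not pass in wild type and rose in the hap1 deletion. FHN1, a membrane protein of the plasma membrane furrows, rose in both, at 0.90, 1.58 and 1.33 in wild type and 3.80, 4.61 and 4.29 in the hap1 deletion.

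URA1, IZH1 and IZH4 fell in wild type without passing in the hap1 deletion, where URA1 read 1.06, 0.79 and 0.43, IZH1 1.07, 0.46 and -0.34 and IZH4 1.38, 2.01 and 0.68. In the other direction PTR2, IDH2 and TIP1 rose in wild type, with no call in the hap1 deletion. There PTR2 read -0.63, -0.50 and -0.32, IDH2 -0.05, -0.25 and -0.51 and TIP1 -0.59, -0.27 and -0.66, all below 0. IDH1 read 1.43, 2.05 and 1.57 in wild type and 0.18, -0.23 and -0.19 in the hap1 deletion, and its difference did not pass (limma adjusted p = 0.0827). ACO1 likewise read 1.98, 2.12 and 1.75 in wild type and 0.19, 0.49 and -0.38 in the hap1 deletion (limma adjusted p = 0.0889). Across these genes the arrays of the strains did not overlap, which adds no evidence, since they were named with their difference known. Leaving out any 1 hap1 deletion array, or wild-type replicate 2 or 3, left 2 differences, both more negative in wild type. Without wild-type replicate 1 there were 1 more positive and 15 more negative.

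**Figure D5:**
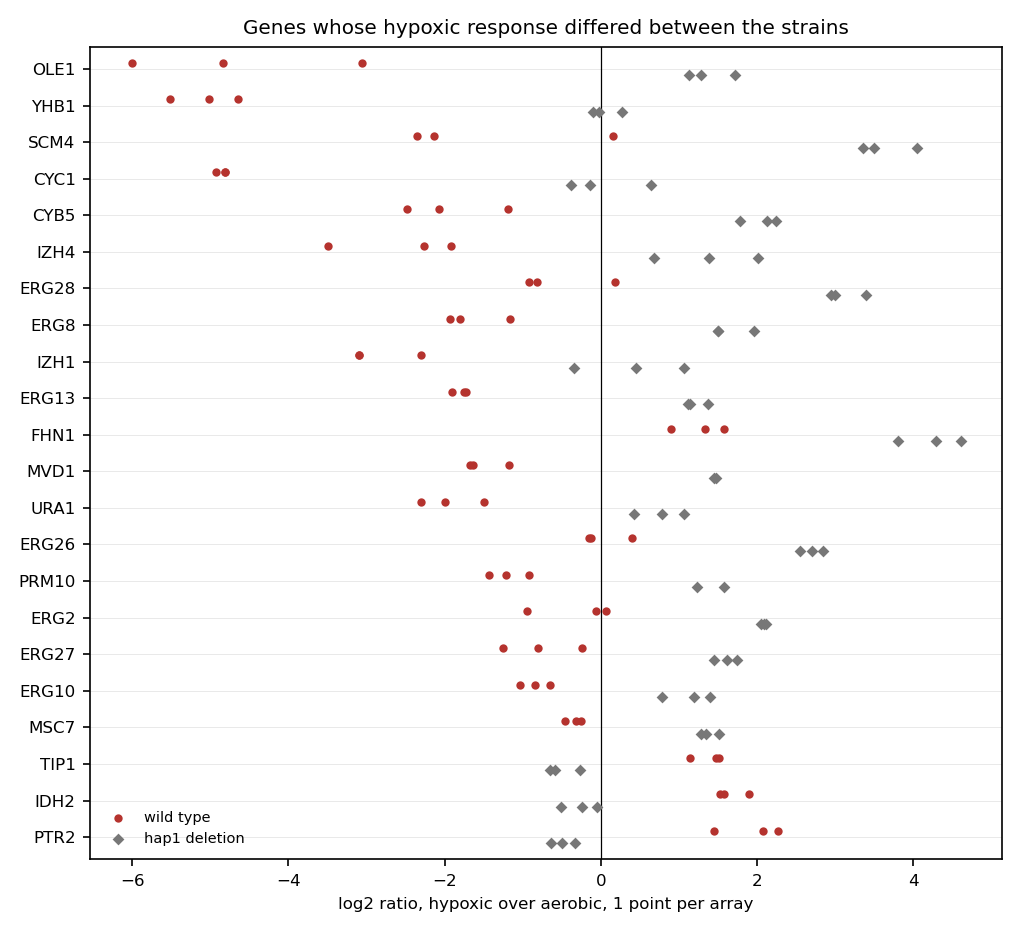
Log2 ratio of hypoxic over aerobic RNA on each array for the 22 genes whose response differed between the strains, with wild type (red circles) above hap1 deletion (grey diamonds) in each row. The strains do not overlap for any of these genes, which were selected by that difference, and OLE1 has the largest, -6.01.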

How the data were processed

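Polyadenylated RNA was primed with oligo(dT), labelled with Cy3 or Cy5 and hybridised in pairs, and spots were quantified with GenePix 5.0, per the labels' protocols. The values deposited by the authors are log10 ratios of aerobic over hypoxic RNA. The sources used here do not state the background correction, spot filters, normalization or combining of spots. Base 10 was taken because of the values' form: 178 of 36476 were exact ratios of whole numbers up to 30 in base 10 (relative tolerance 7e-08), against 6 in base 2. The swapped replicate 2 was read as already turned, since it correlated with the other wild-type arrays at r of 0.454 and 0.539.

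Each ratio was turned to hypoxic over aerobic and converted to log2. A mean per strain and the difference wild type minus hap1 deletion were fitted over all 6 arrays with limma 3.58.1 in R 4.3.3 (two-sided, 4 residual and 2.97 prior degrees of freedom). P-values were adjusted by Benjamini-Hochberg over 6208 genes, with a threshold of 0.05. The fit was tested on simulated data. Only 3 arrays per strain limit the precision. Symbols for 5707 of the 6282 genes came from the RefSeq table of assembly R64. Members and gene lists were chosen with earlier results of these data known. Named were the 15 highest and 15 lowest called means among genes with a value on all 3 wild-type arrays. Called members of each list were also named (at most 4 of a long list), in general with up to 2 that did not pass. Isoform pairs, the most stable and the most even calls and genes that differed between strains were named as well. Alternatives covered centring, scaling, a dye term, a replicate block, complete values, robust moderation, each array left out and the wild-type arrays alone.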

Additional observations from a re-analysis of the deposited data

Results flagged for a closer look

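The response to hypoxia differed between the strains for 22 genes, by the test of the difference itself (wild type minus hap1 deletion, limma adjusted p under 0.05). More negative in wild type by the widest margin were OLE1 at -6.01, YHB1 at -5.11, SCM4 at -5.08 and CYC1 at -4.89. Next came CYB5 at -3.97 and IZH4 at -3.92, then IZH1 at -3.23.

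Among sterol genes the differences were -3.63 for ERG28, -3.29 for ERG8, -3.00 for ERG13, -2.96 for MVD1, -2.66 for ERG26, -2.40 for ERG2, -2.37 for ERG27 and -1.97 for ERG10. The remaining negative ones were -2.97 for FHN1, -2.70 for URA1, -2.59 for PRM10 and -1.73 for MSC7. Positive differences were found for PTR2 at 2.42, IDH2 at 1.94 and TIP1 at 1.88. Groups of 3 arrays were not searched for outlying samples.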

How the results depend on the processing

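Direction held for all called genes named here under every setting. Settings were compared for 151 genes, which left out some named here, such as HEM14 with arrays on both sides of 0. Of those compared that did not pass, 4 changed sign. UPC2 ran from -0.84 to 0.52, ERG26 from -0.14 to 0.14, RNR1 from -0.20 to 0.30 and HXK2 from -0.19 to 0.17 over the fits that left out an array. RNR1 was 0.0696 after centring and scaling and 0.0142 after centring, and HXK2 was 0.027 and 0.0242 and, with a dye term, 0.0315. Counts were less stable, and the cause was not tested. Leaving out 1 array gave 0 to 144 genes higher and 2 to 199 lower in wild type, and 0 to 1 and 2 to 15 for the difference between strains. Scaling the arrays gave 180 genes higher, and for the difference 0 and 3. A dye term gave 29 higher and 14 lower, and 0 and 7 for the difference. The limma fit of the wild-type arrays alone called 0 higher (700 at an unadjusted p under 0.05) and 2 lower, where fewer arrays carry the spread. At an adjusted p under 0.10, an alternative chosen after seeing the data, it called 238 and 310.

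Replicate numbers were shared between strains, and the main fit did not pair the arrays. Deviations of same-numbered arrays correlated at -0.03, 0.06 and 0.13, and only replicate 3 correlated best with its own number. Deviations from a mean of 3 arrays are tied to each other, so these values cannot exclude a shared day or batch. With the replicate block the limma fit called 0 genes higher (651 at an unadjusted p under 0.05) and 2 lower, and for the difference 0 and 0 (211 and 265 unadjusted). Promoter motifs were not examined here, for want of sequence. Other settings (centring, complete values, robust moderation, a 2-fold minimum) kept each count over all genes within 1.5 times. Counts of single gene groups moved more. With complete values large subunit assembly had 22 lower calls in place of 13, cytochrome c oxidase 4 in place of 2 and general stress 3 higher in place of 1. With centring the small subunit processome had 5 lower in place of 8, and RNA polymerases I and III 0 in place of 2. The number of arrays and unstated background handling limit low-signal genes.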

Other observations

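The genes in these paragraphs were picked out after their values had been seen and stand for no gene group. GAR1 and NHP2, proteins of the pseudouridine-guiding particles, fell at -1.33, -1.26 and -1.08 (limma adjusted p = 0.0267) and -1.48, -0.98 and -1.0 (limma adjusted p = 0.0416). SKI6 and LRP1, of the RNA exosome, fell at -1.54, -1.72 and -1.06 (limma adjusted p = 0.023) and -1.33, -1.25 and -0.83 (limma adjusted p = 0.033), while RRP43, another exosome subunit, rose at 0.81, 0.82 and 0.76 (limma adjusted p = 0.0435). LTV1, an export factor of the small subunit, read -1.32, -2.21 and -1.30 (limma adjusted p = 0.038). All 3 arrays lay below 0 for each of these genes except RRP43, for which all lay above it.

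GTT1, a glutathione transferase, read 3.48, 2.41 and 1.77 (5.87-fold higher in hypoxia, limma adjusted p = 0.0208). OYE2, an NADPH oxidoreductase, read 0.72, 1.10 and 1.46 (limma adjusted p = 0.0496), and its chromosomal neighbour STB5, a transcription factor of NADPH-producing genes, read 0.71, 1.18 and 1.37 (limma adjusted p = 0.0416). The cytosolic D-lactate dehydrogenase family member DLD3 read 2.17, 1.56 and 2.56 (limma adjusted p = 0.0117), opposite in sign to its mitochondrial relative DLD2. PMT5, a protein mannosyltransferase, rose at 1.29, 2.62 and 2.12 (limma adjusted p = 0.0191). STB5 and OYE2 were called in 2 and 1 of the 6 fits that left out an array, and GTT1, DLD3 and PMT5 in 3 each.

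Of the called genes 6 that rose and 16 that fell have no entry in the RefSeq table, and some carry the systematic number next to a called gene. YDR491C read -2.29, -1.55 and -2.55 beside IZH1, and YOR135C read 2.05, 1.79 and 1.04 beside IDH2. Whether such spots measure a transcript of their own or share signal with the neighbour was not tested.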
